A study of Mus musculus with 4 samples.

Results

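The genes that make microRNAs and load them onto Argonaute proteins were described in mouse T cells through 10 members, chosen by symbol from 50600 annotated genes: Drosha, Dgcr8, Xpo5, Dicer1, Tarbp2, Ago1, Ago2, Ago3, Ago4 and Tnrc6a. All 10 symbols matched 1 row each. RNA was taken from primary T cells of the inbred strain C57BL/6NJ and sequenced in 4 libraries, labelled as biological replicates 1 to 4, which form a single group. The labels give neither sex, age nor culture condition, and they link a protocol for CD4+ T-cell differentiation and a library protocol for polyadenylated RNA, while the assay itself is titled total RNA-seq. The alignment names in the file headers carry the words Th0 and activated and a time of 24 h for each of the 4 libraries. There was no second group, so the questions were at what level each member was transcribed, in what proportions paralogs and partners stood to each other, and how far the libraries differed. No label states that the libraries came from separate animals, so spreads and p-values describe these libraries alone and may partly be technical.

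In the microRNA pathway, the nuclease Drosha and its RNA-binding partner Dgcr8 cut hairpins out of primary transcripts in the nucleus. Exportin-5, the product of Xpo5, carries the hairpins to the cytoplasm, where Dicer, with the helper protein encoded by Tarbp2, trims them to short duplexes. An Argonaute protein keeps one strand and is guided by it to messenger RNAs, and GW182 proteins such as the product of Tnrc6a recruit the enzymes that shorten poly(A) tails and remove caps. In T cells the pathway is known for its role in proliferation, in the choice of helper fate and in regulatory T cells, and activation is known to lower Argonaute protein and mature microRNAs.

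Depth differed between libraries. Assigned fragments numbered 60102919, 273136467, 48608896 and 47558517 in replicates 1 to 4, so that replicate 2 was the deepest. Each of 8 T-cell markers reached 10 TPM in all libraries (TPM is the count divided by exon length and scaled to a common sum). Trac stood at 1676 ± 85.0 TPM, Trbc2 at 1009 ± 26.9 and Cd3g at 99.0 ± 4.63 (mean ± SD, n = 4, here and below). The summed level of 5 B-cell markers ran from 3.33 to 7.01 TPM and that of 6 myeloid markers from 5.57 to 8.37. Cd68 made up most of the myeloid sum, at 5.43, 7.01, 8.11 and 5.22 TPM in replicates 1 to 4, while Csf1r and S100a8 had no fragment. The 3 red-cell markers had none either. Of the CD8 pair, Cd8b1 was at 46.7 ± 3.55 TPM and Cd8a at 0.839 ± 0.0254. In bulk RNA, fewer cells with a transcript and less of it per cell cannot be told apart. Xist was at 163, 150, 0.715 and 0.696 TPM and the Y-linked gene Ddx3y at 0.0434, 0.0219, 38.8 and 39.3 in replicates 1 to 4. Replicates 1 and 2 were thus unlike replicates 3 and 4 in the sex chromosomes they show. All 4 were kept as 1 group, so spreads and the test of variation include any difference between these pairs of libraries. No member lies on chromosome X or Y. Between these pairs of libraries the TPM values of Drosha, Dgcr8 and Ago2 did not overlap, while those of the other members did. Drosha and Ago2 were higher in replicates 3 and 4, and Dgcr8 was lower there. The cause was not tested.

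Nearly all of the machinery was transcribed well, and 2 of the 4 Argonaute genes carried most of their family. At least 10 TPM in all 4 libraries was reached by 8 of the 10 members, against 36.4% of the 22271 genes with a fragment in any library. At least 1 TPM in all 4 was reached by 9 members, against 51.6% of those genes. The exceptions were Ago3, at a low level in each library, and Ago4, near or at 0. The members' mean levels had a median of 48.4 TPM, and their sum was 674 ± 19.4 TPM.

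**Figure D1:**
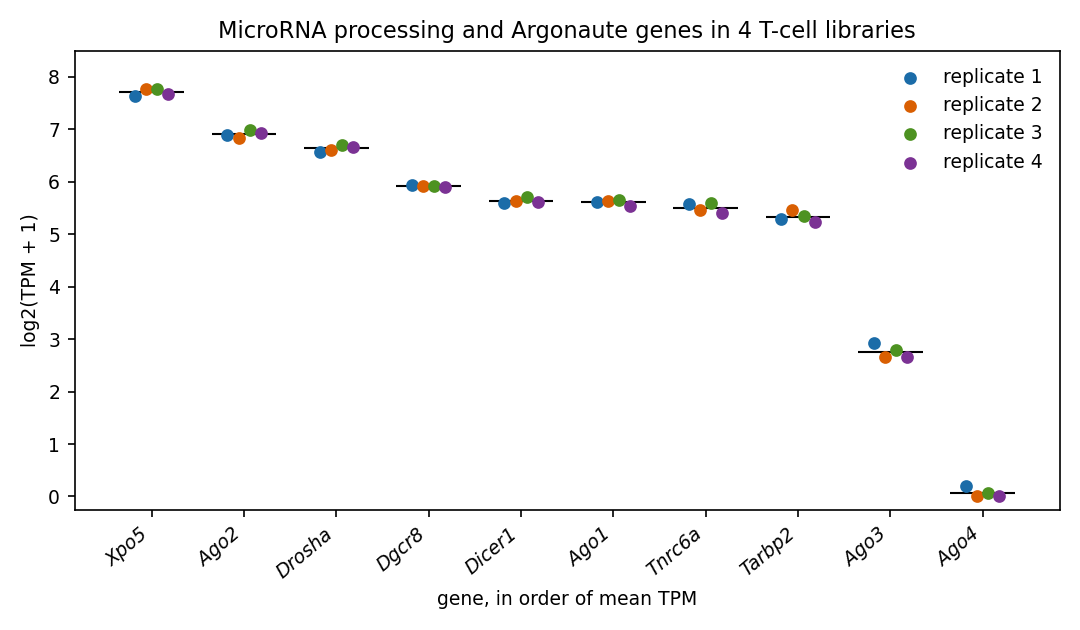
Level of each member on the log2(TPM + 1) scale (vertical axis) in replicates 1 to 4 (coloured points), with the mean of the 4 libraries as a line and genes in order of mean TPM. Xpo5 is the highest at 210 TPM, 7 members follow between 39.5 (Tarbp2) and 120 (Ago2), and Ago3 (5.79) and Ago4 (0.0513) stand apart at the low end.

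Drosha, the nuclease of the nuclear step (ENSMUSG00000022191.15, mm10 chromosome 15, 12824815 to 12935290), stood in replicates 1 to 4 at 94.5, 96.8, 103 and 100.3 TPM. These values lay within a narrow band, with a mean of 98.7 ± 3.93, above 81.1% of the 11483 genes that reached 1 TPM in all libraries. Dgcr8 (ENSMUSG00000022718.11, chromosome 16, 18253948 to 18289249), which recognises the hairpin and holds it for Drosha, was at 60.5, 59.7, 59.2 and 58.9 TPM. Its mean of 59.6 ± 0.710 had a coefficient of variation of 1.19%. Within each library, Drosha exceeded Dgcr8 by a factor of 1.66 ± 0.0831 (0.72 ± 0.07 on the log2(TPM + 1) scale), in 4 of 4 libraries. This order rested on the length used: with counts divided by coding length in GENCODE vM21 it turned to -0.39 ± 0.07. The exons of Drosha cover 5934 bases, against a coding length of 4119, and those of Dgcr8 cover 7286, against 2319.

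Dgcr8 is itself a substrate of the enzyme it belongs to: the nuclear complex is known to cut a hairpin in its messenger, as a feedback. The annotation of the files places the hairpins of Mir1306 (chromosome 16, 18284239 to 18284317, minus strand) and of Gm24572 (18284550 to 18284637) within an exon of Dgcr8 on the same strand. The 2 mature sequences of Mir1306, from RefSeq on GRCm38.p6, are shown because they lie inside the counted exon; capitals mark the seed, bases 2 to 8.
miR-1306-5p: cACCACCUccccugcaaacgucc
miR-1306-3p: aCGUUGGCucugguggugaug
Both hairpin rows had 0 fragments in every library. Under the counting options in the header, a fragment that overlaps both genes is given to neither, so these zeros carry no measure of the hairpins. Dgcr8 shares 167 bases (2.29%) of its exons with them. A further 825 bases (11.3%) face the gene Trmt2a on the opposite strand, which the strand setting keeps apart. For Drosha the shared stretch on its own strand was 72 bases (1.21%), for Tnrc6a 143 (1.13%), and for the other 7 members 0.

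Xpo5 (ENSMUSG00000067150.5, chromosome 17, 46202855 to 46242299), the export receptor, was the member with the highest level per exon base. It was at 199, 218, 219 and 204 TPM in replicates 1 to 4, with a mean of 210 ± 10.1. Replicates 2 and 3 were nearly equal and above the other two. The gene stood above 91.9% of the genes that reached 1 TPM in all libraries. Per library it exceeded Drosha by a factor of 2.13 ± 0.0919 and Dicer1, the next enzyme of the path, by 4.28 ± 0.130, each in 4 of 4 libraries. The sizes depended on the length used. Xpo5 minus Drosha was 1.08 ± 0.06 on the log2 scale with the exons of the files, 0.59 ± 0.06 with coding length and 0.25 ± 0.06 with the longest transcript. Xpo5 minus Dicer1 was 2.08 ± 0.04, 1.32 ± 0.04 and 1.62 ± 0.04 in the same order, and 0.68 ± 0.04 as CPM, which is not divided by length. The exon model counted by the authors holds 3709 bases, of which nearly all are coding, whereas the longest transcript in the later release vM21 has 5081. The counts were the same under each length, so counts and divisor do not match for the last 2. Fragments on transcript bases outside the counted exons were missed, and fragments on counted exons outside the coding sequence were kept.

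Of the genes of the cytoplasmic cut, Dicer1 stood slightly above its partner Tarbp2 with the exons of the files, but not with the other 2 lengths. Dicer1 (ENSMUSG00000041415.9, chromosome 12, 104687742 to 104751952) was at 47.6, 48.8, 51.2 and 48.3 TPM, with a mean of 49.0 ± 1.58. Tarbp2 (ENSMUSG00000023051.10, chromosome 15, 102518192 to 102523676) was at 38.3, 43.2, 39.8 and 36.8, highest in replicate 2, with a mean of 39.5 ± 2.76. The ratio within libraries was 1.24 ± 0.0820, in 4 of 4. The merged exons of Tarbp2 hold 4549 bases and its longest coding sequence 1095, and the order turned with the length used: Dicer1 minus Tarbp2 was 0.30 ± 0.10 on the log2 scale with the exons of the files, -0.41 ± 0.10 with the longest transcript and -0.93 ± 0.10 with the coding length. Prkra, which encodes PACT, the other double-stranded RNA-binding partner of Dicer, was much lower at 9.39, 7.63, 7.89 and 7.38 TPM, and Tarbp2 exceeded it by a factor of 4.94 ± 0.652 in 4 of 4 libraries. That difference was 2.16 ± 0.18 on the log2 scale with the exons of the files and 3.04 ± 0.18 with coding length. Adar, an RNA-editing enzyme that also acts on hairpins, was at 56.4 ± 5.23 TPM. Drosha exceeded Dicer1 by a factor of 2.02 ± 0.0431, a log2 difference of 1.00 ± 0.03 that was 0.28 ± 0.03 as CPM.

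Among the Argonautes, Ago2 was first, Ago1 second, Ago3 far lower and Ago4 almost without fragments. Ago2 (ENSMUSG00000036698.10, chromosome 15, 73095844 to 73184840) encodes the mammalian Argonaute best known for cutting fully matched targets. It was at 118, 113, 126 and 121 TPM in replicates 1 to 4, highest in replicate 3, with a mean of 119.5 ± 5.62. Ago1 (ENSMUSG00000041530.16, chromosome 4, 126435012 to 126468583), whose product acts mainly through GW182 proteins, was at 47.8, 48.8, 49.1 and 45.7, with a mean of 47.8 ± 1.52. Ago2 and Ago1 did not overlap, and their ratio within libraries was 2.50 ± 0.142. Ago3 (ENSMUSG00000028842.15, chromosome 4, 126331704 to 126429556) was at 6.57, 5.34, 5.90 and 5.35 TPM, with a mean of 5.79 ± 0.582. Ago2 exceeded it by a factor of 20.8 ± 1.97 and Ago1 by 8.32 ± 0.778, in 4 of 4 libraries each. With coding length, Ago3 was at 12.8 ± 1.25 TPM, Ago1 minus Ago3 fell from 2.85 to 1.95 ± 0.13 on the log2 scale, and Ago2 stood at 219 ± 11.4 TPM against 52.0 ± 1.76 for Ago1.

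Ago4 (ENSMUSG00000042500.11, chromosome 4, 126489541 to 126533472) had 19, 0, 5 and 0 fragments in replicates 1 to 4. The absence from replicate 2, the deepest library, allows at 3 fragments no more than 0.00546 TPM there, and that from replicate 4 no more than 0.0308; these limits cover counting error only. Replicate 1 stood at 0.154 TPM and replicate 3 at 0.0509. No other gene shared exon bases with Ago4 on either strand. Ago3 exceeded Ago4 by 2.69 ± 0.03 and Ago2 exceeded it by 6.84 ± 0.11 on the log2(TPM + 1) scale, which understates differences for a gene this low.

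As shares of the summed TPM of the 4 Argonaute genes, Ago2 made up 68.4%, 67.6%, 69.7% and 70.3% in replicates 1 to 4, Ago1 between 26.6% and 29.2%, Ago3 between 3.11% and 3.81%, and Ago4 at most 0.0893%. The mean share of Ago2 was 69.0 ± 1.21% and that of Ago1 27.6 ± 1.14%. The coding lengths of the family are nearly equal (2571 to 2583 bases), so that dividing by them leaves the fragments themselves as the measure: Ago2 then had 77.1 ± 1.00% and the order of the 4 genes was the same. The summed level of the family was 173 ± 6.01 TPM.

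**Figure D2:**
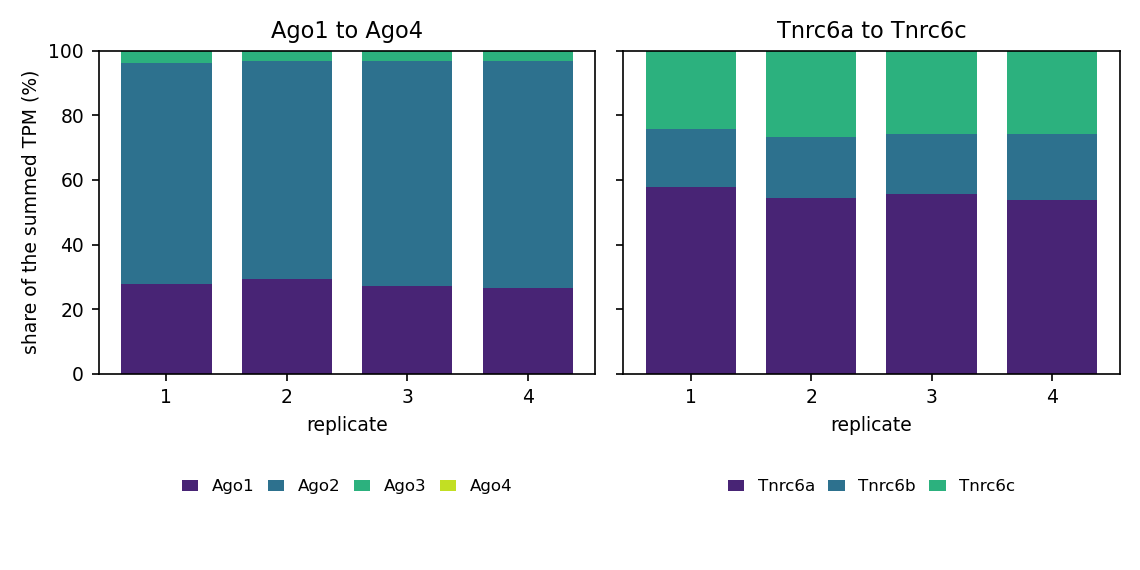
Share of each Argonaute gene in the summed TPM of the 4 Argonaute genes (left) and of each GW182 gene in the sum of Tnrc6a, Tnrc6b and Tnrc6c (right), in percent, for replicates 1 to 4. Ago2 holds 67.6% to 70.3% and Tnrc6a 53.9% to 57.7% in every library, and Ago4 is too small to be seen.

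Ago3, Ago1 and Ago4 lie next to each other in this order on the minus strand of chromosome 4, with 5455 bases between Ago3 and Ago1 and 20957 between Ago1 and Ago4, and yet differ widely in level. Their promoter windows (250 bases before to 50 after the start, RefSeq on GRCm38.p6, minus strand) are shown because the 3 neighbours differ in transcript level; capitals mark the dinucleotide CG, which reads the same on both strands.
Ago3, chr4:126429493-126429792: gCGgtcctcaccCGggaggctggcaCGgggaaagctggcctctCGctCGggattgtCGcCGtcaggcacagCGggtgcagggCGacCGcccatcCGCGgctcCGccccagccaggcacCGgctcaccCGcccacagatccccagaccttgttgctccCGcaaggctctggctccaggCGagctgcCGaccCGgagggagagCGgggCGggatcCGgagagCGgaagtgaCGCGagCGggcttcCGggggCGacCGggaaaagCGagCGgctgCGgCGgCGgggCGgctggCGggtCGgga
Ago1, chr4:126468534-126468833: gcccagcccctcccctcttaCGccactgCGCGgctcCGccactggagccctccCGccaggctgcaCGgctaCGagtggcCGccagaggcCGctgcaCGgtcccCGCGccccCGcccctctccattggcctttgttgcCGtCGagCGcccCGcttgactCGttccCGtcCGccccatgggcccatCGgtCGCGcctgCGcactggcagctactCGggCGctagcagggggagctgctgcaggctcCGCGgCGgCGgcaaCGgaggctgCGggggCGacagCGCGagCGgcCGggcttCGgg
Ago4, chr4:126533409-126533708: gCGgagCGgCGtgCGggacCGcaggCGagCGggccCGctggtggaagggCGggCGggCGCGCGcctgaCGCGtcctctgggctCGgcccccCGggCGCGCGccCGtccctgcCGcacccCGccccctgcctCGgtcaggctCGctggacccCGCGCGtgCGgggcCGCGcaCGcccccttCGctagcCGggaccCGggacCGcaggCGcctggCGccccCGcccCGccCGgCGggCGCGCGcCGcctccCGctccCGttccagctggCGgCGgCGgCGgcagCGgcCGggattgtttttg
The window of Ago3 holds 37 CG, that of Ago1 holds 38 (31 in a second window that starts upstream of it) and that of Ago4 holds 54, beside a median of 7 over 32851 windows of the same length. As many as in Ago4 are found in 0.347% of all windows. Of the 3 neighbours, the one with the most CG had the fewest fragments. Over all members the table had a window for 9, with Ago2 the one without. Dicer1 (49), Dgcr8 (43), Xpo5 (40) and Drosha (37) were dense in CG too, while Tarbp2 had 21 and Tnrc6a had 11. At least 11 CG occur in 41.4% of all windows. These counts describe sequence alone; methylation and binding were not analysed here.

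Tnrc6a (ENSMUSG00000052707.8, chromosome 7, 123123885 to 123195296), which encodes a GW182 protein that links Argonaute to deadenylation, was at 46.6, 42.8, 47.4 and 41.3 TPM, with a mean of 44.5 ± 2.93. Replicates 1 and 3 were above replicates 2 and 4. Its paralogs were lower in each library, with Tnrc6b at 14.6, 14.8, 15.8 and 15.7 TPM and Tnrc6c at 19.5, 21.1, 22.0 and 19.7. Tnrc6a exceeded Tnrc6b by a factor of 2.93 ± 0.231 and Tnrc6c by 2.17 ± 0.154, and made up 55.4 ± 1.71% of the summed level of the 3 genes, which was 80.3 ± 3.62 TPM. Tnrc6c was above Tnrc6b in 4 of 4 libraries, but with coding length in place of exon length their difference (Tnrc6b minus Tnrc6c) was 0.06 ± 0.07, less than its spread. Ago2 exceeded Tnrc6a by a factor of 2.69 ± 0.164. The size depended on the length used: with coding length Ago2 was at 219 ± 11.4 TPM against 34.3 ± 2.31 for Tnrc6a, and with the longest transcript at 93.8 ± 4.48 against 54.7 ± 3.65. Tnrc6a minus Tnrc6b on the log2 scale was 1.49 ± 0.11 with the exons of the files, 0.99 ± 0.11 with coding length and 2.09 ± 0.11 with the longest transcript.

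Each of the 18 pairs of paralogs and partners had the same direction in all 4 libraries. An exact permutation of signs, two-sided, gave p = 0.125 for each, which is the smallest value that 4 libraries allow and is the same after Benjamini-Hochberg adjustment over the 18. No pair could therefore pass a threshold of 0.05.

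In the order of mean level, from Xpo5 through Ago2, Drosha, Dgcr8, Dicer1, Ago1, Tnrc6a, Tarbp2 and Ago3 to Ago4, 6 of the 9 pairs of neighbours did not overlap between libraries. The 3 that did overlap formed the middle of the order. Dicer1 exceeded Ago1 by 1.17 ± 1.43 TPM, in 3 of 4 libraries. Ago1 exceeded Tnrc6a by 3.28 ± 2.27 TPM in 4 of 4, although their ranges overlapped, and Tnrc6a exceeded Tarbp2 by 5.02 ± 3.95 TPM in 3 of 4. Neighbours among these 4 genes thus could not be put in a firm order. Genes further apart did not overlap with the exons of the files. The lowest value of Dicer1 (47.6 TPM) was above the highest of Tnrc6a (47.4) and of Tarbp2 (43.2). The lowest of Ago1 (45.7) was also above the highest of Tarbp2. Below these 4 genes, Tarbp2 exceeded Ago3 by 33.7 ± 2.98 TPM, with no overlap between libraries.

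The length that divides the counts changed this order above Ago3 and Ago4, in its middle as well as at its top. Dicer1 was in place 5 with the exons of the files and in place 8 with either other length. With coding length, Ago2 was first at 219 ± 11.4 TPM and Xpo5 second at 74.2 ± 3.90, followed by Dgcr8 (64.5), Tarbp2 (56.6), Ago1 (52.0) and Drosha (49.0). With the longest transcript, Xpo5 (121 ± 5.74) was followed by Drosha (101 ± 4.04) and Ago2 (93.8 ± 4.48). Ago2 has 13705 bases of exon and only 2580 coding, and which of its annotated ends the cells used was not measured here. Ago3 and Ago4 stayed the lowest pair under all 3 lengths.

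**Figure D3:**
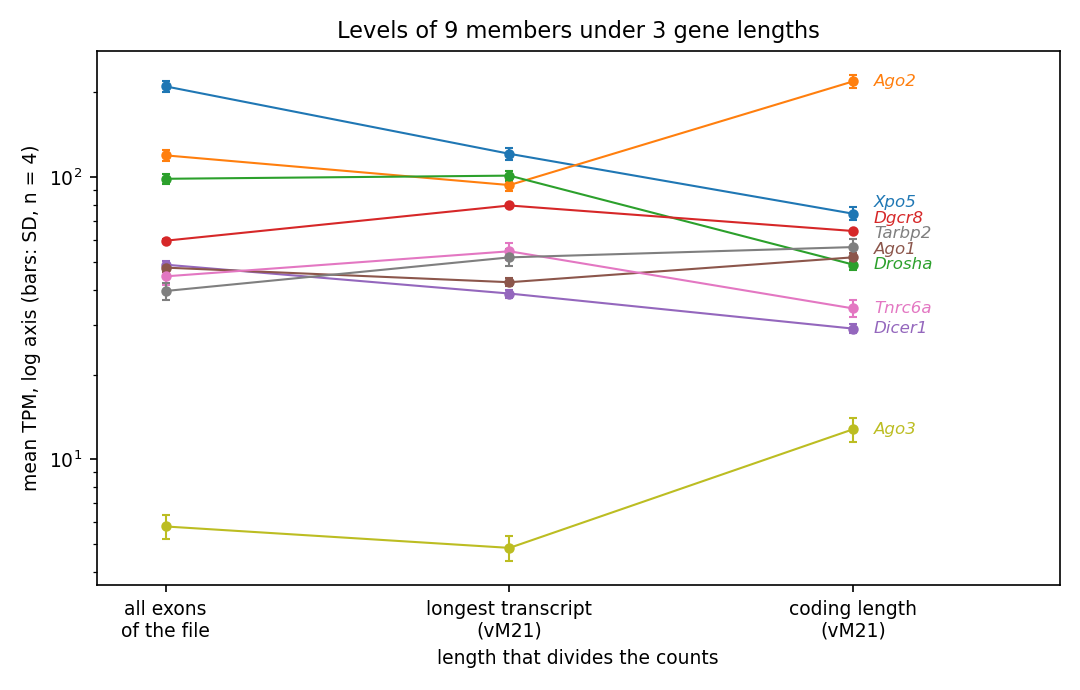
Mean TPM (log axis, bars are SD over 4 libraries) of 9 members with counts divided by the exon length of the files, by the longest transcript or by the longest coding sequence in GENCODE vM21. Ago2 moves from 120 to 219 TPM and Xpo5 from 210 to 74.2 between the first and the last, while Ago3 stays lowest. Under each length TPM is scaled anew to a common sum over the genes that have it, so levels also move with the lengths of other genes. The length of Xpo5 itself changes little, from 3709 to 3612 bases. Ago4 is left out as near 0.

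Variation between libraries was tested for all genes at once with edgeR, as the residual deviance of a model with 1 mean per gene, set against genes of the same level. Of 12712 genes past the filter on low counts, 46 varied (Benjamini-Hochberg adjusted p under 0.05), which is 0.362%. Of the 9 members that passed the filter, all but Ago4, 0 were among them. At an unadjusted p under 0.05 there were 0 of the 9 members, beside 704 of the 12712 genes. The largest deviance among members was that of Ago3 (4.97), followed by Tnrc6a (3.72) and Tarbp2 (2.34), each with an edgeR adjusted p of 1.00. With no filter on low counts Ago4 entered as well, with a deviance of 10.2 and an edgeR adjusted p of 1.00. Its unadjusted edgeR p there was 0.0166, in a setting where 806 of 22271 genes were under 0.05. With the filter, Dgcr8 had the smallest deviance among members, 0.220, beside a median of 1.98 over all genes tested. On the log2 scale Ago3 deviated from its own mean by 0.19 in replicate 1 and by -0.11, 0.03 and -0.11 in replicates 2 to 4, a range of 0.30 that was the widest among the 9 members tested. Ago4, outside that test, varied more relative to its mean, with a coefficient of variation of 142% over its 24 fragments. The genes of nearest profile over the 4 libraries were Nyap1, Lrrc58 and Slc30a1, at Euclidean distances of 0.031, 0.037 and 0.040 in log2 deviation. With 4 libraries of 1 group, nearness of this kind is a description only.

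**Figure D4:**
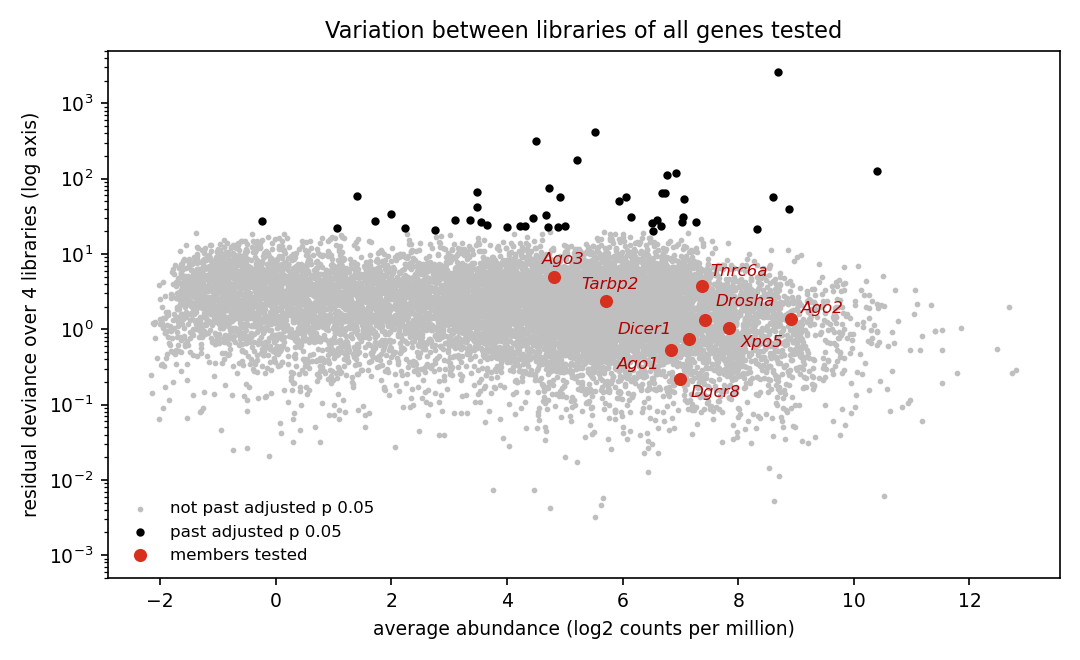
Residual deviance over the 4 libraries (vertical, log axis) against average abundance in log2 CPM for the 12712 genes tested in edgeR; the 46 genes past adjusted p 0.05 are black and 9 members red. The members lie between 0.220 (Dgcr8) and 4.97 (Ago3), within the cloud of other genes and below all black points.

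Genes that act around the members were described by lists. Their counts at 10 TPM stand beside 36.4% of the 22271 genes with a fragment in any library. The lists were not tested against that share. Each of the 8 cofactors of the nuclear step reached 10 TPM throughout, with Hnrnpa1, an RNA-binding protein that remodels some hairpins, at 1873 ± 35.3 TPM, the helicase gene Ddx5 at 627 ± 32.7 and the cap-binding gene Ncbp2 at 92.3 ± 5.35. The lowest of the 8 was thus close to Drosha itself. All 4 partners of export were above Xpo5, with Ran, the GTPase that Exportin-5 binds together with its cargo, at 1026 ± 79.0, Ranbp1 at 757 ± 83.6 and Rcc1, which recharges Ran, at 306 ± 21.5. The 12 chaperone genes that help to load Argonaute all reached 10 TPM too, with Hsp90ab1 at 7766 ± 247, Hspa8 at 2160 ± 103 and Dnaja1 lowest at 44.7 ± 3.62.

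Downstream of Tnrc6a, each of 13 deadenylation genes reached 10 TPM throughout, with a median of 83.6 TPM. Pabpc1, the poly(A)-binding protein that GW182 proteins contact, was at 1195 ± 35.7, Cnot9, the CCR4-NOT subunit that binds them, at 196 ± 5.68, and Pan3, of the other deadenylase, lowest at 15.2 ± 0.771. Of 11 decapping and decay genes 10 did so. Ddx6, a helicase and partner of CCR4-NOT, was at 167 ± 5.53, Eif4enif1 at 117 ± 3.94, and the decapping cofactor gene Dcp1b at 8.45 ± 1.15.

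Of 13 genes that tail, trim or degrade small RNAs, 11 were at 10 TPM or more, led by the exonuclease gene Xrn2 at 212 ± 5.61 and Snd1, which encodes the nuclease Tudor-SN, at 141 ± 5.33. The let-7 blocking genes were the exception. Lin28a had no fragment in any library, and Lin28b was at 0.0603 ± 0.0214 TPM, while the uridylating enzymes that LIN28 recruits were present, Tut7 at 50.4 ± 1.42 and Tut4 at 31.6 ± 1.89. Among 9 other Argonaute-associated genes 5 were at 10 TPM or more, with Fxr2 at 136 ± 5.58, Limd1 at 79.5 ± 3.93 and Trim71 lowest at 0.156 ± 0.0781. The PIWI pathway, which uses the germ-line branch of the Argonaute family, was near 0. Of 12 genes none reached 10 TPM throughout (0 of 12), 9 were below 1 TPM in every library and 5 had no fragment at all. Of all 50600 annotated genes, 8109 reached 10 TPM throughout, 37020 were below 1 TPM in every library and 28329 had no fragment. The last 2 counts thus do not set the PIWI list apart from annotated genes at large, and the first was not tested. This background is all annotated genes, unlike the genes with a fragment that were used for the members. Its highest members were Piwil2 at 2.64 ± 0.395 and Henmt1 at 1.22 ± 0.263.

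**Figure D5:**
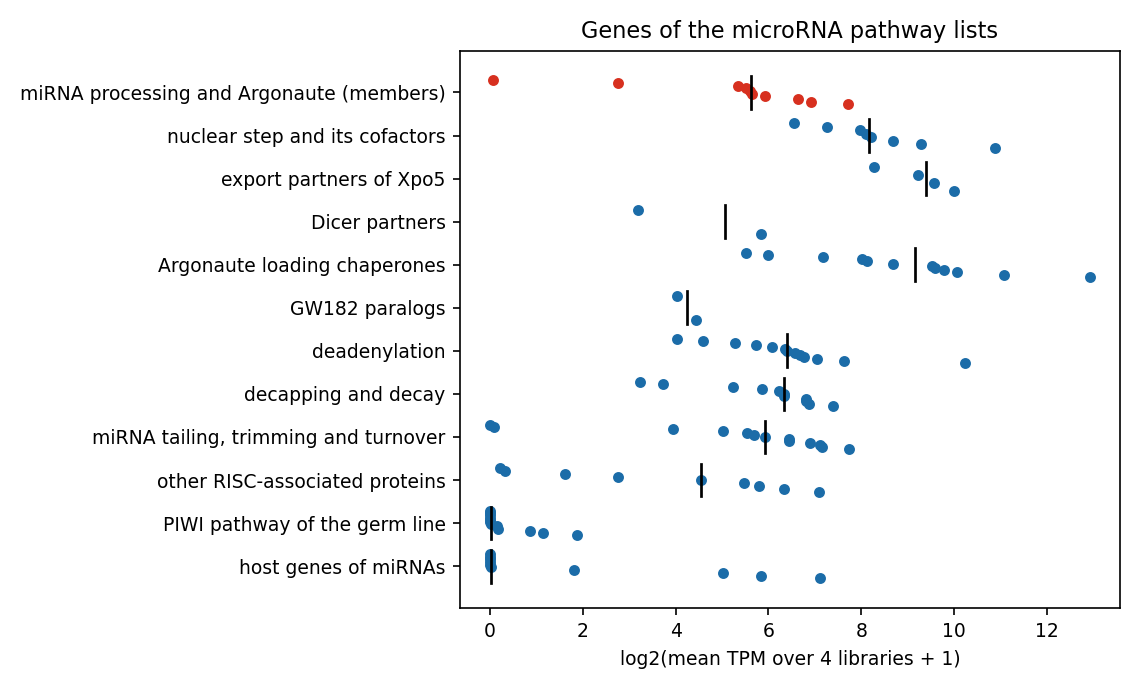
Mean level over the 4 libraries as log2(mean TPM + 1) of each gene (points) in the members and in the lists around them, with the list median as a line. Nuclear cofactors, export partners and chaperones have medians of 285, 675 and 570 TPM against 48.4 for the members, and most PIWI genes lie at or near 0.

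Host genes of microRNAs, whose transcripts the machinery cuts, number 10 in the annotation by symbol. In replicates 1 to 4, Mir142hg stood at 144, 151, 133 and 122 TPM, Mir155hg at 66.8, 55.0, 54.6 and 48.9, and Mir17hg at 37.1, 33.0, 29.9 and 25.3. Mir22hg was at 2.48 ± 0.335, and 5 of the 10 had no fragment, beside 28329 of all 50600 annotated genes. The 3 highest host genes carry microRNAs well known in lymphocytes. Mature sequences within their spans, from RefSeq on GRCm38.p6 and matched for all 3 hosts, are shown for the arms usually kept, with the seed (bases 2 to 8) in capitals, since the seed groups them by the targets they can pair with.
miR-17-5p: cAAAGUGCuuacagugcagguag
miR-20a-5p: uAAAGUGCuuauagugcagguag
miR-18a-5p: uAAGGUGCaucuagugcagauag
miR-19a-3p: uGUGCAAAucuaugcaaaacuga
miR-19b-3p: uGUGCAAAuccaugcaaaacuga
miR-92a-3p: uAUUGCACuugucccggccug
miR-155-5p: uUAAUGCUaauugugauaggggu
miR-142a-5p: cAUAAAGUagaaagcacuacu
miR-142a-3p: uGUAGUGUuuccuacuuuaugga
The first 6 come from Mir17hg (chromosome 14, 115042879 to 115046727), which yields the miR-17 to miR-92a cluster: miR-17 and miR-20a share 1 seed, and miR-19a and miR-19b share another. Mir155hg lies on chromosome 16 (84703167 to 84715245) and Mir142hg on chromosome 11 (87755577 to 87757270). These libraries count host transcripts and not mature microRNAs. All 3 hosts were lowest in replicate 4. Mir17hg had a deviance of 12.6 and Mir155hg of 7.25 in the edgeR test, with adjusted p of 0.382 and 0.960, so that neither was past the threshold. Mir142hg has only 269 bases of exon, the fewest of the 3.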

How the data were processed

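The authors deposited 1 table of whole-number fragment counts per library. Pairs with both ends aligned were counted with featureCounts 1.4.6-p4 over exons of GENCODE vM13 genes (strand setting 2), per the file headers, without the options for fragments of several places or several genes; the build is mm10 per the labels, and alignment settings are not given in the sources used here. Text listings of files were not used. The members and lists were chosen with earlier results of these data known. TPM was computed from counts and exon length over all 50600 genes; symbols came from GENCODE vM21 (50376 identifiers matched). Every pair of libraries differed beyond counting noise (chi-square divided by its degrees of freedom was at least 9.14), and all 4 libraries formed 1 group.

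Variation was tested with edgeR 4.0.16 (R 4.3.3). Settings were filterByExpr with a minimum count of 10, TMM factors (0.998 to 1.002), trended dispersion and an intercept-only model. The deviance was set against chi-square with Benjamini-Hochberg adjustment. The step was also run on counts simulated from the means and fitted dispersions of these data, with larger shifts than the tested members showed. That run does not measure how often changes as small as theirs would be found. Pairs were tested on log2(TPM + 1) within libraries. A count of 3 fragments was taken as detection floor. Alternatives used DESeq2 1.42.0 size factors, other lengths, filters, dispersions, pseudocounts, replicate 2 thinned to the mean depth of the others and each replicate left out. Other steps used scipy 1.17.1, pandas 2.3.3, numpy 2.4.6 and matplotlib 3.10.9 in Python 3.11.15. Named are all members, the genes of the pairs, of each list the 2 highest, the lowest and any past the threshold, the 3 highest host genes, and the 3 genes nearest in profile to the member of largest deviance. The count of members at a level is read against genes with a fragment in any library, a background chosen after the data were seen. Lin28b, Mir22hg, Csf1r, Xist and Ddx3y were named after their values were seen.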

Additional observations from a re-analysis of the deposited data

Results flagged for a closer look

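In 3 of 80 sets of values checked, 1 library lay apart from the other 3 by more than Dixon's limit, which chance alone passes in about 1 set of 20. By depth this was replicate 2, with 273136467 assigned fragments against 47558517 to 60102919. Dicer1 minus Ago2 on the log2(TPM + 1) scale was -1.19 in replicate 2 against -1.30 to -1.29 in the others, so Dicer1 was closest to Ago2 in the deepest library. With replicate 2 thinned to the mean depth of the others, mean levels were 48.9 TPM for Dicer1 (49.0 unthinned) and 119.47 for Ago2 (119.52 unthinned). The difference itself was not computed with thinned counts, so the part of depth in it was not tested. Snd1, the nuclease gene, was at 133 TPM in replicate 1 against 143 to 144.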

How the results depend on the processing

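The number of members at 10 TPM was 8 or, as CPM and with coding length, 9. All 18 pairs had 1 direction in all libraries, against 16 as CPM (Tnrc6b minus Tnrc6c was -0.0014 and Tut4 minus Tut7 -0.028) and 17 with coding length or the longest transcript. Requiring 1 TPM of both genes removed the 3 pairs with Ago4 and left 15, each with 1 direction; with a replicate left out there were 18. No member passed the threshold of variation under any alternative run of that test. The median member level of 48.4 TPM became 134 as CPM, 50.5 with coding length and 53.3 with the longest transcript, and ran from 47.8 to 48.9 with a replicate left out. The share of Ago2 (69.0%) became 77.1% as CPM, 77.1% with coding length and 66.4% with the longest transcript; that of Tnrc6a (55.4%) became 51.7%, 51.2% and 64.5%. Without a replicate the shares ran from 68.6% to 69.5% and from 54.7% to 55.9%. With coding length, Drosha minus Dgcr8 turned to -0.39, Dicer1 minus Tarbp2 to -0.93 and Tnrc6b minus Tnrc6c to 0.065; with the longest transcript, Dicer1 minus Tarbp2 turned to -0.41. The divisor alone differs there, while the counts stay those over the exons of vM13. The number of variable genes, 46, was 862 under a common dispersion; leaving out replicates gave 25 (without replicate 2) to 40, and the cause was not tested. Lengths from vM21 were chosen after seeing the data, and the planned length from RefSeq proteins was not run. No paired analysis was possible because there is 1 group. Among the members only Ago4 had few fragments, 24 in all. They did not follow depth, at 19, 0, 5 and 0 in replicates 1 to 4, and the cause was not tested.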
